A study of Mus musculus with 6 samples.

Results

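The synaptic vesicle and release machinery was followed through 45 genes, chosen by name for their function as vesicle proteins, calcium sensors, SNARE proteins, active zone proteins and endocytic proteins. The choice was made with earlier results of these data known. Each of the 45 symbols matched a single Ensembl gene of GENCODE M21 (mm10) among the 48709 genes of the count table, and all 45 had enough counts to be tested, among 16699 tested genes. The data are RNA sequencing counts from cerebellum of C57BL/6J mice aged 40 weeks. The wild-type group held 3 samples. The other group held 3 samples of SCA7 140Q/5Q knock-in mice, named Kihet in the sample titles, with 140 glutamine codons in the long Atxn7 allele and 5 in the short allele. SCA7 is spinocerebellar ataxia type 7, an inherited degeneration of cerebellum and retina caused by an expanded glutamine repeat in ataxin-7. No other allele, treatment or sex is given, and no label says whether each sample is a different animal. The p-values therefore weigh a group difference only against the spread among these samples, some of which may be technical.

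Neurotransmitter is packed in synaptic vesicles, which dock at the active zone, a protein scaffold on the presynaptic membrane, and fuse when calcium enters. Fusion is driven by SNARE proteins on vesicle and membrane, primed by Munc13 and RIM proteins, clamped by complexins and triggered by calcium sensors of the synaptotagmin and Doc2 families. Vesicle membrane is then retrieved by endocytosis. In the cerebellum this machinery serves the parallel fibre synapses of granule neurons, the inhibitory synapses of Purkinje cells and interneurons, and the climbing and mossy fibres, whose cell bodies lie outside the cerebellum.

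Against wild type, 3 of the 45 genes changed by the edgeR test (adjusted p up to 0.05). Doc2b, a calcium sensor, fell, and the vesicle membrane proteins Synpr (synaptoporin) and Syngr3 (synaptogyrin 3) rose. The other 42 did not pass the threshold, among them the most abundant release genes, Snap25, Cplx1, Rab3a, Syp, Vamp2 and Dnm1. The 3 calls are 6.67% of the set, beside 318 of 16699 tested genes, or 1.90%, called in either direction. In single directions, 1 of 45 was called lower, beside 1.28% of all tested genes, and 2 of 45 higher, beside 0.629%. Because the set was chosen with earlier results known, its shares are a description only.

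Doc2b (ENSMUSG00000020848, chromosome 11, 75768966 to 75796049, minus strand, mm10) encodes a soluble C2-domain protein of high calcium affinity that is known for spontaneous and asynchronous release. Its levels in CPM (read counts relative to the TMM-scaled library size) were 156.8, 169.8 and 155.5 for wild type against 92.5, 109.7 and 97.0 for knock-in. Every knock-in library was below every wild-type library. The mean fell to 99.7 ± 8.90 CPM from 160.7 ± 7.90 in wild type (SD, n = 3 each). The log2 fold change was -0.69 ± 0.09 (SE) with an edgeR adjusted p of 0.00489. The call was lost without knock-in replicate 1 (adjusted p 0.0516, log2 fold change -0.63). When the level of brainstem markers entered the fit as a covariate, leaving 4 genes called in all, the adjusted p was 0.661 and the log2 fold change -0.62.

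Markers of Purkinje cells, the output neurons of the cerebellar cortex, moved in the same libraries. Of 10 such markers, 6 were called lower, among them Calb1, Car8 and Rgs8, beside 1.28% of all tested genes, and none was called higher. The groups overlapped for 1 of them, Pcp2. Their summed level was 8972 to 10771 CPM in knock-in libraries against 13642 to 15412 CPM in wild-type libraries, and none was at 0. Relative to the mean log2 CPM of these markers in the same library, Doc2b stood at -2.55, -2.40 and -2.44 (wild type) and at -2.61, -2.60 and -2.73 (knock-in). On this relative scale the groups lay close together, with no overlap. Purkinje markers were not alone in falling. Of 7 astrocyte and Bergmann markers 3 were called lower. Their mean log2 CPM was 7.88 to 8.09 in knock-in libraries and 8.30 to 8.35 in wild-type libraries. By contrast, 4 of 6 oligodendrocyte markers had a positive log2 fold change. Doc2b relative to other marker lists was not computed. The part of the Purkinje markers in the fall of Doc2b was not tested. In counts from a whole tissue, fewer cells of a type and less RNA per cell cannot be told apart.

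Synpr (ENSMUSG00000056296, chromosome 14, 13284780 to 13616340, plus strand, mm10) is a paralogue of synaptophysin found on the vesicles of some synapses. It had wild-type values of 131.0, 116.3 and 121.5 CPM and knock-in values of 163.5, 157.2 and 162.5 CPM. All 3 knock-in libraries were above all 3 wild-type libraries, and the knock-in values lay within a narrow range. The mean rose to 161.1 ± 3.36 CPM from 123.0 ± 7.45 in wild type, a log2 fold change of 0.39 ± 0.08 (SE) with an edgeR adjusted p of 0.0322. The call was lost when any wild-type sample was left out (adjusted p 0.0661, 0.126 and 0.139 for replicates 1 to 3) or when knock-in replicate 1 (0.143) or 3 (0.0975) was, with log2 fold changes from 0.35 to 0.43. It was also lost with the brainstem covariate (adjusted p 0.866, log2 fold change 0.39).

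The Synpr gene ends 345.1 kb before the start of Atxn7 (13961440 to 14107302), the gene that carries the knock-in. Within 20 Mb of Atxn7, itself left out, lay 162 tested genes, Synpr among them. Of these 162, 9 were called, or 5.56%, beside 1.90% of all tested genes. They were 6 higher, Synpr included, and 3 lower. Erc2, an active zone protein, is the other member on that chromosome, at a gap of 13.5 Mb, and its log2 fold change was -0.04 ± 0.08 (adjusted p 0.84). Sequence carried along with the knock-in allele and the repeat itself cannot be told apart in this design.

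The 250 bases before the start site of Synpr are printed because Synpr is the called member beside the knock-in gene, and those of Syp, its paralogue, for comparison. Synpr has 2 start sites in the table, and the one at the 5′ end of the gene is shown. Both stretches come from RefSeq (GRCm38.p6, the assembly of mm10), plus strand, 5′ to 3′, at chr14:13284530-13284779 and chrX:7638330-7638579. In GENCODE M21 the Syp gene starts at 7638471, so by that annotation the later part of its stretch lies inside the gene. Capitals mark the letters GGGCGG, a GC box, or CCGCCC where it lies on the other strand.
Synpr: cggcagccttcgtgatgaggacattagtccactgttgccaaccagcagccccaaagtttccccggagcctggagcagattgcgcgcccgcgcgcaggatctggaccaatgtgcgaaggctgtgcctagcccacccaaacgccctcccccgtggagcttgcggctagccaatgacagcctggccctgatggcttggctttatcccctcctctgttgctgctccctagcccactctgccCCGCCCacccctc
Syp: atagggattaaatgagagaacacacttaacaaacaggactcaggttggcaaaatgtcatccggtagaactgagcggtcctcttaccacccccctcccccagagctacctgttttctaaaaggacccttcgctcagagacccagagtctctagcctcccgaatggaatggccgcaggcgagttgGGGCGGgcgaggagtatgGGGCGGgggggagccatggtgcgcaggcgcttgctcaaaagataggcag
Synpr holds 1 match and Syp holds 2, and 64% and 56.4% of their bases are G or C. The table listed 36 of the 45 members, with 47 start sites, of which 27 (57.4%) had a match in this window, beside 10738 of 32817 start sites of all genes (32.7%). A match is a description of letters, and RNA counts do not measure these stretches.

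Syngr3 (ENSMUSG00000007021, chromosome 17, 24685092 to 24689955, minus strand, mm10) encodes a tetraspan vesicle protein that binds the dopamine transporter. It had wild-type values of 74.2, 86.3 and 87.8 CPM and knock-in values of 117.2, 117.7 and 119.8 CPM. The lowest knock-in library was above the highest wild-type library, and the knock-in values were nearly equal. The mean rose to 118.2 ± 1.33 CPM from 82.8 ± 7.49 in wild type, a log2 fold change of 0.51 ± 0.08 (SE) with an edgeR adjusted p of 0.0182. As for Synpr, the call was lost when any wild-type sample was left out (adjusted p 0.065, 0.0547 and 0.0584 for replicates 1 to 3), when knock-in replicate 1 (0.0937) or 3 (0.0589) was, and with the brainstem covariate (0.813), at log2 fold changes from 0.43 to 0.54. Syngr3 is short and GC-rich (2071 exon bases, 57.0% GC), and GC-rich genes were low in wild-type replicate 1, where GC content and a gene's deviation from its mean correlated at a Spearman rho of -0.54 across all tested genes. The rho was 0.06 and 0.03 in wild-type replicates 2 and 3, and -0.0006, 0.23 and 0.31 in knock-in replicates 1 to 3. With offsets for GC content and length the log2 fold change was 0.36 (edgeR adjusted p 0.0129). The part of GC content and length in the increase of Syngr3 was not tested.

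**Figure D1:**
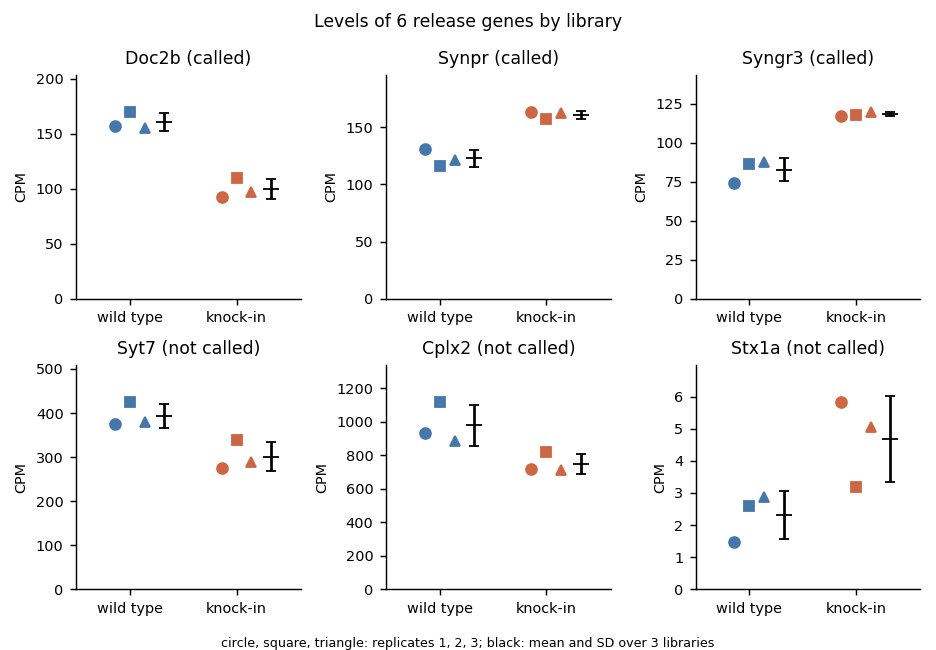
CPM of 6 release genes in each library, with wild type in blue and knock-in in orange, symbols for replicates 1 to 3, and the mean and SD in black (n = 3). Doc2b is lower and Synpr and Syngr3 are higher in every knock-in library, while Syt7, Cplx2 and Stx1a are apart between the groups without passing the threshold.

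Markers of the brainstem, tissue that can stay attached to a dissected cerebellum, also differed between the libraries. Of 10 brainstem markers 5 could be tested and none was called, all 5 with a positive log2 fold change and an unadjusted p under 0.05. Their summed level was 59.5, 7.83 and 28.7 CPM in knock-in replicates 1, 2 and 3, against 2.79 to 6.92 CPM among wild-type libraries. Wild-type replicate 3 had 0 counts of Slc6a4 and Dbh, wild-type replicate 2 had 0 counts of Chat and wild-type replicate 1 had 0 counts of Hoxa5 and Hoxb5. Knock-in replicate 2, close to wild type in these markers, had 157.2 CPM of Synpr and 117.7 CPM of Syngr3, next to 163.5 and 117.2 CPM in knock-in replicate 1, where the markers were highest. The part of this tissue in either increase was not tested.

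Across the set the fitted changes were mostly small. The log2 fold change was below 0 for 34 of 45 genes, with a median of -0.11, beside 48.7% of all tested genes and their median of 0.01. Scaled by library size alone, 24 of 45 were below 0 and the median was -0.03, beside 0.08 for all genes. At an unadjusted p under 0.05 there were 17 of 45 genes, 13 lower and 4 higher, or 37.8% of the set against 18.1% of all tested genes. For 17 of 45 genes (37.8%) the groups were apart, with every knock-in library above or below every wild-type library, beside 23.8% over all genes. In single directions, 11 of 45 (24.4%) were apart and lower, beside 11.5%, and 6 of 45 (13.3%) were apart and higher, beside 12.3%. The 45 members had a median level of 321.1 CPM, beside 20.003 CPM for all tested genes. Genes of matched level were not compared, so the part of level in these shares was not tested. Together the 45 genes took up 1.89% to 1.99% of the unscaled counts in wild type and 1.84% to 1.90% in knock-in, with overlap. Their summed TMM-scaled level was 19148.5 to 20918.1 CPM in wild type and 17710.2 to 18971.7 CPM in knock-in, narrowly apart.

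**Figure D2:**
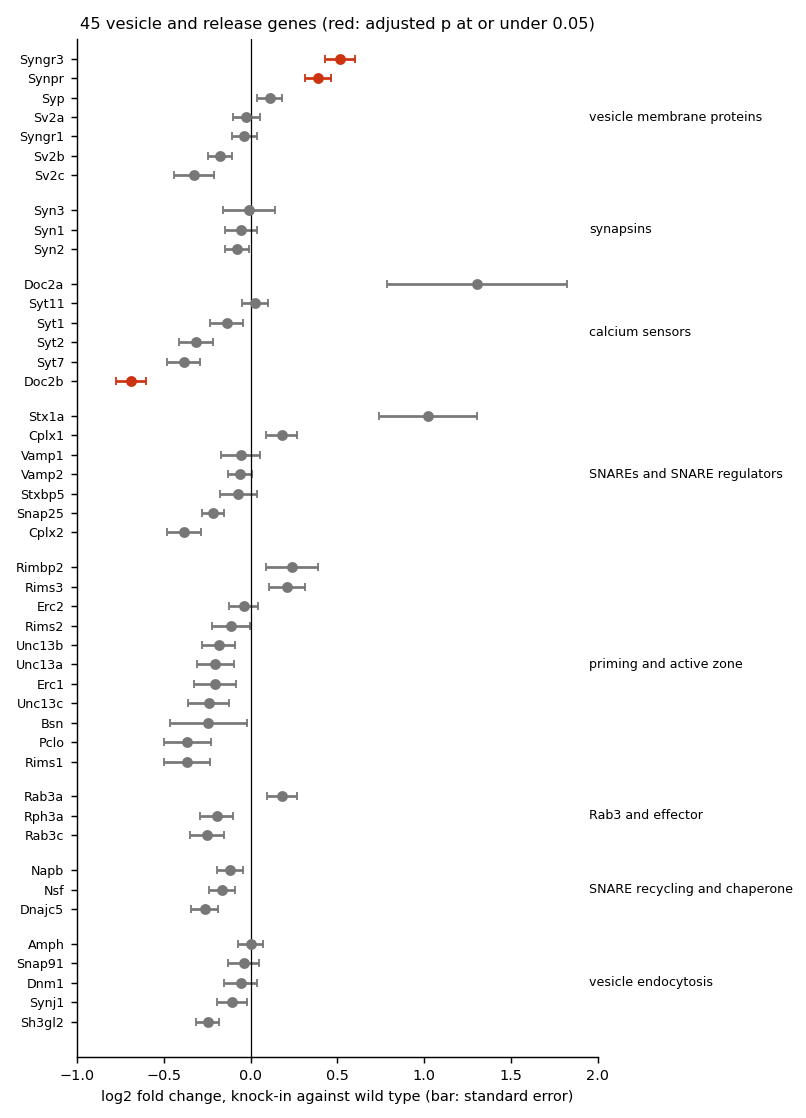
Log2 fold change of knock-in against wild type for the 45 genes with its standard error, in blocks by role, with called genes in red. Of the 45 points 34 lie left of 0, and the red points are Syngr3, Synpr and Doc2b.

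Levels can be compared between genes only per length, here as RPKM (CPM per kilobase of annotated exons). The mean over 6 libraries spanned 457.0 RPKM for Snap25, 350.3 for Cplx1, 237.7 for Rab3a, 219.7 for Syp, 209.7 for Vamp2 and 193.7 for Dnm1 at the upper end. At the lower end stood Rimbp2 at 1.39, Stx1a at 1.31, Doc2a at 0.88, Unc13b at 0.80 and Syn3 at 0.71 RPKM. Rab3a, Syp, Vamp2 and Dnm1 are neighbours in this order whose wild-type values, 222.9 ± 23.0, 211.4 ± 9.28, 214.2 ± 9.08 and 197.5 ± 22.9 RPKM, overlapped at mean ± SD. In knock-in, Rab3a at 252.6 ± 10.9, Syp at 228.0 ± 8.67 and Vamp2 at 205.1 ± 6.57 RPKM did not, while Vamp2 and Dnm1 (189.9 ± 11.8) did. The called genes were of middle to low level, at 39.97 RPKM in wild type for Syngr3, 36.8 for Doc2b and 13.0 for Synpr.

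**Figure D3:**
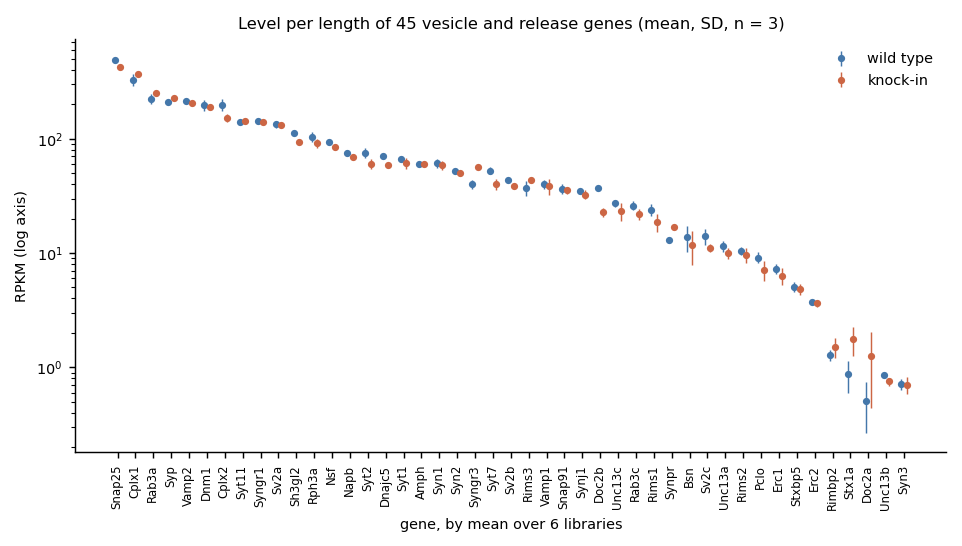
Mean RPKM with SD (n = 3) of each gene in wild type (blue) and knock-in (orange) on a log axis, ordered by the mean over 6 libraries. Snap25 is at the upper end and Syn3 at the lower end.

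Among the other vesicle membrane proteins, Syp, the synaptophysin that serves as the standard vesicle marker, had wild-type values of 1046, 1136 and 1123 CPM and knock-in values of 1151, 1175 and 1239 CPM. The groups were apart by a narrow gap, and the log2 fold change was 0.11 ± 0.07 (adjusted p 0.446). Syngr1, the abundant synaptogyrin, had 688.7 ± 44.5 and 672.2 ± 16.8 CPM. The SV2 proteins, glycosylated transporter-like proteins that bind synaptotagmin, did not pass the threshold. Their means were 622.7 and 612.2 CPM for Sv2a, 364.5 and 322.4 CPM for Sv2b and 135.4 and 108.0 CPM for Sv2c. In Sv2b the knock-in libraries lay at 321 to 325 CPM, all below the wild-type libraries at 354 to 374 CPM (log2 fold change -0.18 ± 0.07, adjusted p 0.211).

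The synapsins, phosphoproteins that tether vesicles into a reserve pool, had no called gene and none at an unadjusted p under 0.05, and DESeq2, which called 5.94% of the 15727 genes it gave an adjusted p, called none. Syn1 had wild-type values of 189.4, 221.2 and 191.6 CPM and knock-in values of 184.7, 212.2 and 181.7 CPM (log2 fold change -0.06 ± 0.09, adjusted p 0.787). Syn2 had 371.5, 375.1 and 361.0 CPM and 351.7, 356.6 and 342.4 CPM (-0.08 ± 0.07, adjusted p 0.596). Syn1 overlapped between the groups, Syn2 was narrowly apart, and Syn3 had 8.73 ± 0.95 and 8.67 ± 1.46 CPM. Each synapsin gene overlaps a gene on the opposite strand, Araf for Syn1, Timp4 for Syn2 and Timp3 for Syn3, and the strand setting of the counting is not given in the sources used here. Timp3 had 6115 counts per library on average and Syn3 had 350.7. These overlaps are of whole gene spans, shared exons were not looked for, and an effect on the counts was not tested. Partners with 16.3% to 43.2% of the member's own counts also overlap Syngr1 (Rpl3), Unc13a (Colgalt1) and Syt2 (Ppp1r12b). Of the called members, Doc2b overlaps Gm12339, with 0.05% of its counts, Synpr overlaps a pseudogene with 0 counts, and no overlap was found for Syngr3.

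Of the synaptotagmins, none passed the threshold. Syt1 and Syt2 are the fast triggers of release, and Syt2 is the form of many hindbrain synapses. Syt2 had wild-type values of 542.3, 645.1 and 538.9 CPM and knock-in values of 473.0, 502.3 and 412.3 CPM, with no overlap (log2 fold change -0.32 ± 0.10, adjusted p 0.144). Syt1 had 560.3 ± 33.0 and 509.2 ± 60.1 CPM, and its groups overlapped. Syt7, a slower sensor of high calcium affinity, had wild-type values of 374.8, 424.0 and 379.5 CPM and knock-in values of 274.2, 338.5 and 289.8 CPM (-0.38 ± 0.09, adjusted p 0.076). Its groups were apart, and it was called in 5 of 14 alternative analyses. The adjusted p was 0.015 after offsets for GC content and length, where 3.89% of all tested genes were called. With DESeq2, which called 5.94% of genes, it was 0.00788. The rest were the fits without a filter, with the replicate block and without knock-in replicate 2, which called 4.67%, 12.2% and 5.04% of genes. Syt11, which lacks calcium binding and has the highest RPKM of the 6 sensors, had 700.3, 767.0 and 727.0 CPM and 785.6, 738.2 and 711.3 CPM (0.03 ± 0.07, adjusted p 0.883).

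Doc2a, the paralogue of Doc2b, and Stx1a, a syntaxin of the presynaptic membrane, had low counts and were uneven in knock-in. They were singled out after their values were seen. Doc2a had wild-type values of 0.64, 1.77 and 1.86 CPM and knock-in values of 5.63, 1.15 and 3.68 CPM (log2 fold change 1.31 ± 0.52, adjusted p 0.223). Stx1a had 1.48, 2.60 and 2.87 CPM and 5.82, 3.19 and 5.04 CPM (1.02 ± 0.28, adjusted p 0.1). Knock-in replicate 2 was the lowest of the knock-in libraries in both genes, as it was in the brainstem markers. With the brainstem covariate the log2 fold changes were -0.08 for Doc2a and 0.56 for Stx1a. The part of brainstem tissue in these values was not tested. By gene span, Doc2a overlaps Ino80e on the opposite strand, which had 1606 counts per library on average against 93.8 for Doc2a.

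The SNARE proteins and their regulators had no call among 7 genes. The unadjusted edgeR p was under 0.05 for 3, beside 18.1% of all tested genes. DESeq2 made 2 calls (Cplx2 and Stx1a), beside its 5.94% over all genes. Snap25, the SNARE of the plasma membrane with the highest level of the set, had wild-type values of 3425, 3371 and 3209 CPM and knock-in values of 2855, 2952 and 2807 CPM. All knock-in libraries were below all wild-type libraries, at a log2 fold change of -0.22 ± 0.06 (adjusted p 0.111). The vesicle SNAREs Vamp1 and Vamp2 (synaptobrevins) had 407.2 ± 34.6 and 391.4 ± 60.9 CPM, and 815.9 ± 34.6 and 781.3 ± 25.0 CPM. Stxbp5 (tomosyn), which occupies syntaxin in place of synaptobrevin, had 84.0 and 79.96 CPM.

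The complexins, which clamp and then assist fusion, had log2 fold changes of opposite sign. Cplx2 had wild-type values of 930.8, 1115 and 887.1 CPM and knock-in values of 718.7, 818.6 and 712.1 CPM (log2 fold change -0.38 ± 0.10, adjusted p 0.0855). Cplx1 had 623.8, 764.1 and 770.2 CPM and 815.3, 792.2 and 834.8 CPM (0.18 ± 0.09, adjusted p 0.328). Both were apart between the groups, in opposite directions, and neither passed the threshold. Cplx2 was called in the same 5 of 14 alternative analyses as Syt7. Among them were DESeq2 (adjusted p 0.0132, beside 5.94% of genes called) and the offsets for GC content and length (0.031, beside 3.89%). With those offsets the log2 fold change of Cplx1 was 0.05.

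At the active zone none of 11 genes was called, 9 had a negative log2 fold change, and the median was -0.20 (8 and -0.13 with scaling by library size alone). An unadjusted edgeR p under 0.05 was found for 2, Rims1 and Pclo, beside 18.1% of all tested genes, and DESeq2 called 0. Rims1, the RIM scaffold that binds Rab3 and calcium channels, had wild-type values of 172.4, 200.01 and 156.2 CPM and knock-in values of 123.7, 164.7 and 121.7 CPM (log2 fold change -0.37 ± 0.13, adjusted p 0.182). Knock-in replicate 2 had more than wild-type replicate 3, so the groups overlapped. Rims3, a short RIM form with the highest RPKM of this group, had 254.9, 344.5 and 293.7 CPM and 347.4, 357.1 and 328.9 CPM, with overlap (0.21 ± 0.11, adjusted p 0.321). Rims2 had 108.3 and 100.1 CPM.

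The giant scaffolds Bsn (bassoon) and Pclo (piccolo) varied between the libraries of a group. Bsn had wild-type values of 177.4, 284.5 and 199.9 CPM and knock-in values of 163.2, 257.0 and 139.0 CPM (-0.24 ± 0.22, adjusted p 0.603). Pclo had 206.1, 226.8 and 182.6 CPM and 155.8, 192.7 and 129.6 CPM (-0.36 ± 0.14, adjusted p 0.196). Replicate 2 was the highest of both groups in both genes. The priming factors of the Munc13 family had means of 144.2 and 125.3 CPM for Unc13a, 19.4 and 17.1 CPM for Unc13b and 241.2 and 204.1 CPM for Unc13c, the form of granule neurons. The ELKS proteins Erc1 and Erc2 had 118.5 and 102.7 CPM and 36.4 and 35.4 CPM, and the RIM-binding protein Rimbp2 had 10.1 and 11.9 CPM.

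These 11 genes are long, with a median of 10389 annotated exon bases against 7487 for the whole set. Knock-in replicate 3 was the lowest of the 6 libraries for 8 of 11 (72.7%), against 51.1% of the set and 22.7% of all tested genes. In that library the deviation of a gene from its mean had a Spearman rho of -0.43 with exon length across all tested genes, which are not independent. The other libraries had values from -0.08 to 0.28. With offsets for GC content and length the median of the 11 genes was -0.10, with 8 negative. For Pclo the log2 fold change was then -0.21 (edgeR adjusted p 0.202), for Rims1 -0.30 (0.202) and for Bsn -0.35 (0.216). The part of exon length in the changes of the 11 genes was not tested. Across the 45 genes the log2 fold change had a rho of -0.36 with exon length and 0.24 with GC content, next to -0.22 and 0.32 over 16656 tested genes, as a description.

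**Figure D4:**
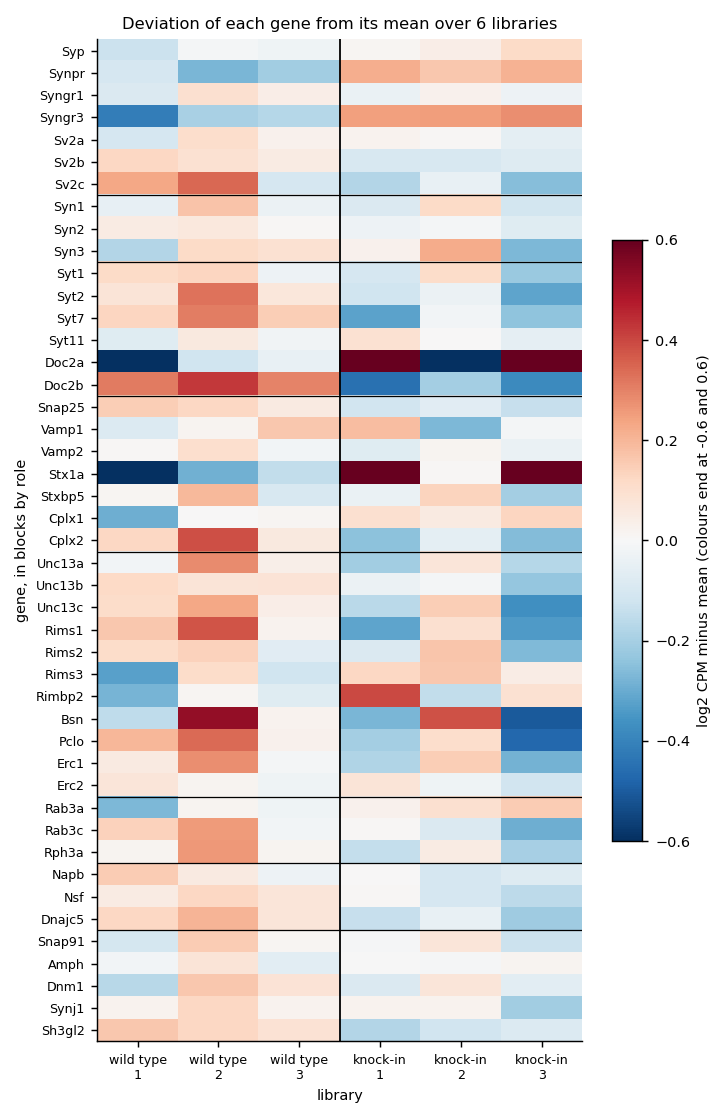
Log2 CPM of each gene in each library minus its mean over the 6 libraries, with red above and blue below the mean, in blocks by role. Doc2b, Synpr and Syngr3 change colour at the line between the groups, and the active zone block is red in wild-type replicate 2 and mostly blue in knock-in replicate 3.

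None of the 3 Rab3 and effector genes, 3 recycling genes and 5 endocytosis genes was called. An unadjusted edgeR p under 0.05 was found for 1, 2 and 1 of them, beside 18.1% of all tested genes. DESeq2 called 0, 1 (Dnajc5) and 1 (Sh3gl2), again beside its 5.94% over all genes. Rab3 proteins are the vesicle GTPases that bind RIM and rabphilin. Rab3a had wild-type values of 437.6, 533.1 and 517.6 CPM and knock-in values of 537.1, 564.1 and 585.6 CPM (log2 fold change 0.18 ± 0.09, adjusted p 0.314). Rab3c had 314.8, 341.6 and 283.4 CPM and 287.6, 269.5 and 233.7 CPM (-0.25 ± 0.10, adjusted p 0.223). Rab3a was narrowly apart and Rab3c overlapped, and the effector Rph3a (rabphilin) had 483.4 ± 48.6 and 422.2 ± 39.0 CPM.

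Nsf, the ATPase that takes SNARE complexes apart, had wild-type values of 770.5, 812.0 and 784.1 CPM and knock-in values of 747.8, 695.4 and 668.8 CPM (-0.16 ± 0.07, adjusted p 0.268). Its adaptor Napb (beta-SNAP) had 533.2 and 491.0 CPM. Dnajc5, the cysteine string protein that keeps SNAP-25 folded, had 485.2, 511.6 and 466.9 CPM and 403.5, 430.6 and 383.8 CPM (-0.27 ± 0.08, adjusted p 0.114). Nsf and Dnajc5 were lower in every knock-in library without passing the threshold.

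In endocytosis, Dnm1 (dynamin 1), which cuts vesicles from the membrane, had wild-type values of 902.2, 1134 and 1073 CPM and knock-in values of 954.1, 1068 and 968.8 CPM (-0.06 ± 0.09, adjusted p 0.797). Sh3gl2 (endophilin A1), which bends membrane and recruits synaptojanin, had 749.4, 730.8 and 712.3 CPM and 593.3, 620.1 and 632.9 CPM (-0.25 ± 0.07, adjusted p 0.102). Dnm1 overlapped between the groups, and Sh3gl2 was apart. Amph (amphiphysin) had 270.8 ± 13.6 and 270.9 ± 2.31 CPM, Snap91 (the clathrin adaptor AP180) 333.2 and 323.9 CPM, and Synj1 (synaptojanin 1) 282.0 and 261.7 CPM.

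A ratio of 2 genes within a library does not depend on library scaling, so 11 ratios between related members were computed, chosen after the values had been seen and given with no test. The groups were apart for 6 of these chosen pairs, a count with no background share, from which nothing is read. For Cplx1 to Cplx2 counts the wild-type log2 ratios were -0.58, -0.54 and -0.20, and the knock-in ones 0.18, -0.05 and 0.23. The ratio of Syngr3 to Syngr1 was -3.11, -3.07 and -2.99 against -2.49, -2.55 and -2.47. Rims3 to Rims1 moved from 0.75 ± 0.18 to 1.35 ± 0.20, and Synpr to Syp from -3.16 ± 0.15 to -2.88 ± 0.06. The ratio of Rab3c to Rab3a was lower in knock-in, at -1.10 ± 0.21 against -0.66 ± 0.20, as was that of Doc2b to Syt1, at -2.35 ± 0.10 against -1.80 ± 0.07. The ratios of Vamp1 to Vamp2, Syn2 to Syn1, Syt2 to Syt1, Sv2c to Sv2a and Bsn to Pclo overlapped. A ratio shows unequal change and not which gene moved, and the members of a pair differ in length and GC content.

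**Figure D5:**
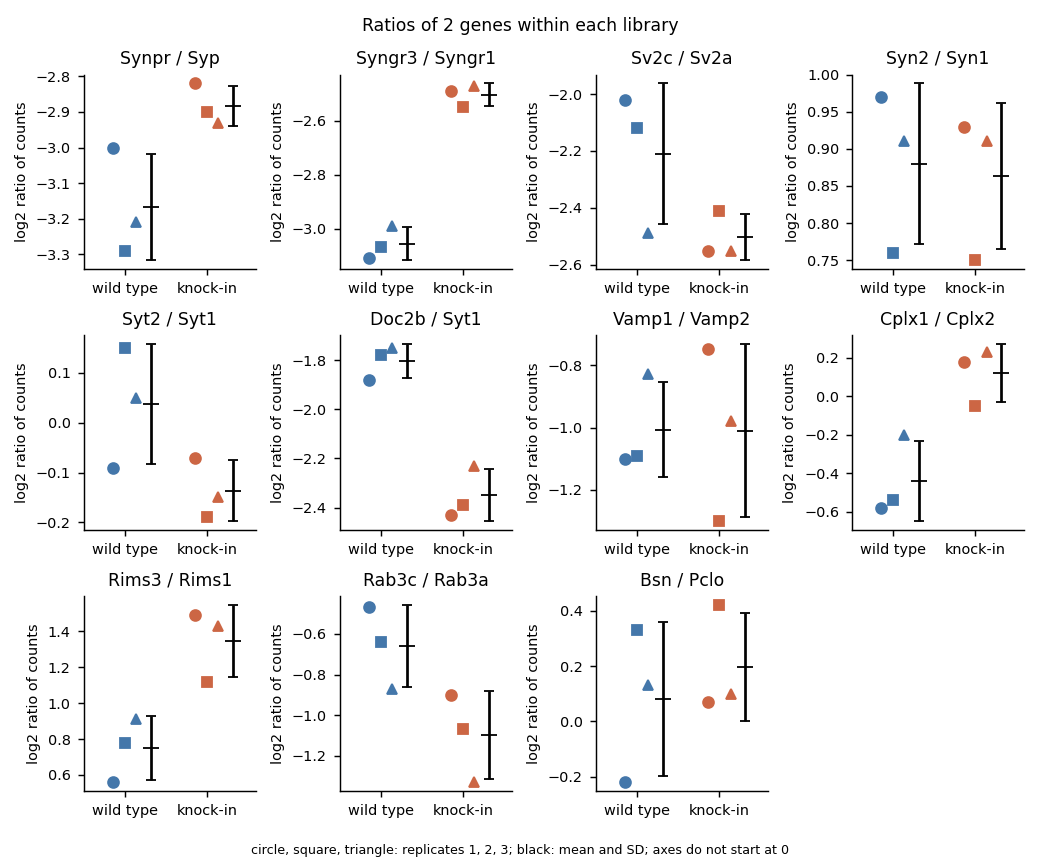
Log2 ratio of the counts of 2 genes in each library, with wild type in blue, knock-in in orange, symbols for replicates 1 to 3, and the mean and SD in black (n = 3). The groups are apart in 6 of 11 panels, among them Cplx1 to Cplx2, and overlap in the other 5.

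Of 75 further genes of vesicle release and endocytosis outside the set, 74 were matched and 73 tested. Among 45 tested release genes, Rab3d, a Rab3 form of secretory granules, fell, and none rose. It had 23.6 ± 0.96 CPM in wild type and 16.2 ± 1.03 in knock-in (log2 fold change -0.54 ± 0.09, edgeR adjusted p 0.0217). Among 28 endocytosis genes, Fcho1, a nucleator of clathrin-coated pits, rose, and none fell. It had 21.7 ± 2.61 and 33.1 ± 1.53 CPM (0.61 ± 0.10, adjusted p 0.0217). The share called was 2.74%, beside 1.90% of all tested genes, and the median log2 fold change was -0.01. Rab3d lost its call when any wild-type sample was left out (adjusted p 0.0831, 0.0736 and 0.0651 for replicates 1 to 3) or knock-in replicate 1 (0.122) or 3 (0.086). Fcho1 lost it without wild-type replicate 1 (0.0693) or 3 (0.0657) or knock-in replicate 1 (0.081) or 3 (0.0752). With the brainstem covariate the log2 fold change was -0.46 for Rab3d (adjusted p 0.866) and 0.62 for Fcho1 (adjusted p 0.803).

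The libraries held 34630391 to 49127673 counts. Over all genes 213 were called lower and 105 higher, and 190 lower and 323 higher with scaling by library size alone. Leaving out a wild-type sample gave 47, 89 and 78 called genes for replicates 1 to 3, and leaving out a knock-in sample gave 39, 858 and 73. Cerebellar identity was visible in Gabra6 of granule neurons at 706 to 790 CPM in knock-in libraries and 756 to 913 CPM in wild-type libraries. Of the remaining marker lists, granule neurons had 1 of 8 lower, astrocytes and Bergmann glia 3 of 7, oligodendrocytes 1 of 6, and none was called in 8 interneuron, 3 unipolar brush and nuclear, 6 microglia, 4 vascular, 5 choroid plexus and 2 tested forebrain markers. Uncalled lists were not all level. Of 8 interneuron markers 7 had a negative log2 fold change, beside 48.7% of all tested genes. An unadjusted edgeR p under 0.05 was found for 5 of them (62.5%), beside 18.1%. Their median level was 123.5 CPM, and genes of matched level were not compared. The list holds Gad1, Gad2 and Slc32a1, genes of inhibitory neurons, which include Purkinje cells, so it does not mark interneurons alone. All 5 choroid plexus markers were negative, and Ttr ranged from 2.59 CPM in knock-in replicate 2 to 1778 CPM in wild-type replicate 3. No gene of these cell type lists was called higher. Over all tested genes 1.28% were called lower and 0.629% higher.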

How the data were processed

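RNA of cerebellum was sequenced from TruSeq Stranded mRNA libraries, per the labels' protocols. The authors deposited raw counts of reads per Ensembl gene. Per the submitters' processing notes, HTSeq 0.6.1, Bowtie2 2.1.0, TopHat2 2.0.14 and bcl2fastq 2.17.1.14 were used with mm10. Strand setting and annotation release: not given in the sources used here. Symbols, positions, exon lengths and the GC content of the longest transcript came from GENCODE M21, which matched 48349 of 48709 identifiers.

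Counts were tested in R 4.3.3 with edgeR 4.0.16: low counts were removed by filterByExpr (at least 10, and 15 in total), libraries were scaled by TMM, genotype was the sole term of the quasi-likelihood F test, and p-values were adjusted by Benjamini-Hochberg over all 16699 genes tested, with calls up to 0.05. The standard error is the absolute log2 fold change divided by the square root of F. RPKM is CPM per kilobase of the union of exons. The procedure was tested on simulated data.

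The 45 members, the lists and the tests were chosen with earlier results of these data known. Full values were given for Synpr, Doc2b, called members, and in each role the member with the highest RPKM and that with the smallest p. Further members were described by means, and those with all values given beyond this rule were chosen after their values were seen.

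Alternatives were DESeq2 1.42.0 and its size factors, library size alone, no filter, limma-voom (limma 3.58.1), the replicate number as a block, each sample left out, spline offsets for GC content and exon length, and the mean log2 CPM of 5 tested brainstem markers as a covariate. Pairs of libraries of a group differed by more than sampling noise (chi-square per degree of freedom 14.1 to 30.5), so each counted as 1 sample.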

Additional observations from a re-analysis of the deposited data

How the results depend on the processing

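Doc2b, Synpr and Syngr3 kept their direction in all 14 alternatives and were called in 12, 8 and 8 of them. The number of members called lower, 1, was 7 without a filter on low counts, 5 with DESeq2, 3 with offsets for GC content and length, 0 with the brainstem covariate and 0 to 6 with a sample left out. The number called higher, 2, was 4 without the filter, 0 with the covariate and 0 to 4 with a sample left out. For the other vesicle cycle genes the count of 2 became 4 with library size alone, 11 without the filter, 8 with DESeq2, 6 with the offsets, 0 with the covariate and 0 to 9 with a sample left out. Over all genes 318 became 513, 1303, 934, 650 and 4 in the same order, and 39 to 858. The cause was not tested. In the fit reported 17 members had an unadjusted p under 0.05, beside 18.1% of all tested genes. With the covariate 7 did, and 12 did without knock-in replicate 1, where no member was called. For those fits no share over all genes is given, so 7 and 12 are a description only.

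With the replicate block, 15 members were called lower and 3 higher, 17 other vesicle cycle genes and 2034 genes in all. The deviations of equally numbered samples correlated at 0.0011, 0.17 and 0.32, below 0.1 for 1 of the 3 pairs. Wild-type replicates 2 and 3 correlated best with their own number, and replicate 1 with knock-in replicate 2 (0.10). No label says that a number marks a shared animal or day, so the samples were not treated as paired.

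Some log2 fold changes near 0 that were not called changed sign. With library size alone Syn1 was at 0.016 and Dnm1 at 0.018, and with the covariate Syt11 was at -0.062. With a sample left out Syn1 ranged from -0.14 to 0.015, Dnm1 from -0.16 to 0.011 and Syt11 from -0.015 to 0.064. Low counts limit Doc2a, Stx1a and Syn3.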
